A study of Mus musculus with 3 samples.

Results

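The enzymes that use arginine and the enzyme that makes itaconate were followed through single immune cells of the mouse pancreas. The 7 genes, of 31053 in the count table, were the arginine importer Slc7a2, the arginases Arg1 and Arg2, the inducible nitric oxide synthase Nos2, argininosuccinate synthase Ass1, ornithine decarboxylase Odc1 and cis-aconitate decarboxylase Acod1. They were chosen by gene symbol for their place in these pathways, with earlier results of these data known. Live CD45+ cells were sorted from the pancreas of C57BL/6J mice, of both sexes and 6 to 8 weeks old by the general methods of the study. The mice had received an intraperitoneal injection of PBS, or of WGP 3 or 7 days before euthanasia. WGP are whole β-glucan particles, made from the cell wall of the yeast Saccharomyces cerevisiae. Each condition was 1 10x Genomics library, and how many mice went into each is not given in the sources used here.

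Macrophages take up arginine through cationic amino acid transporters and split it by competing routes. Arginase yields urea and ornithine, which ornithine decarboxylase turns into putrescine, the start of the polyamines, whereas Nos2 yields nitric oxide and citrulline, and Ass1 begins the return of citrulline to arginine. Acod1 draws cis-aconitate out of the tricarboxylic acid cycle to make itaconate, which inhibits succinate dehydrogenase and is made in large amounts by activated myeloid cells.

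After quality filters, 5217 cells of the PBS library, 5084 of the 3-day WGP library and 4466 of the 7-day WGP library were kept, with a median of 4903, 4611 and 6822 unique molecular identifiers (UMIs, each counted as 1 captured transcript) per cell. Barcodes shared by a pair of libraries numbered 8, 1 and 4, and none was shared by all. Monocytes and macrophages, the class of most interest here, made up 760, 719 and 1367 of these cells (14.6%, 14.1% and 30.6%), with 8254134, 11058678 and 16316000 UMIs in sum. Clusters without a name held 719, 542 and 683 cells, and despite the sort for CD45, 209, 276 and 167 cells had the markers of acinar cells. The monocyte and macrophage class was put together from clusters that differed in weight between the libraries. In the PBS library 80.3% of it was cluster 7, in the 3-day library 57.6% was cluster 6, and in the 7-day library 76.4% was cluster 1. Levels are given as CPM, the UMIs of a gene per 1000000 UMIs of its class in a library, and differences as the log2 ratio of CPM. With 1 library per condition no test between conditions was possible, there is no replicate error, and the 95% intervals (exact Poisson for a CPM, exact conditional for a ratio, exact Clopper-Pearson for a share) cover counting error only.

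All 7 genes are protein coding in GENCODE vM21 on GRCm38, the assembly also called mm10. Arg1 lies on chromosome 10 (24915221 to 24927484, minus strand) with 8 exons, Arg2 on chromosome 12 (79130777 to 79156301, plus strand) with 8 exons and Nos2 on chromosome 11 (78920787 to 78960254, plus strand) with 26 exons. Slc7a2 lies on chromosome 8 (40862396 to 40922308), Ass1 on chromosome 2 (31470207 to 31520672), Odc1 on chromosome 12 (17544794 to 17551505) and Acod1 on chromosome 14 (103046977 to 103056573), all on the plus strand and with 12, 16, 12 and 5 exons. Arg2 overlaps Vti1b and Gm48780 on the other strand, and Slc7a2 overlaps Gm26584 on the other strand. Odc1 has Gm22748 inside it on its own strand, so a read in that stretch could belong to either.

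RefSeq promoter sequences on GRCm38.p6 matched 3 of the 7 genes. These are shown as the ones at hand, and a link between their sequence and the classes in which they were detected was not tested. The bases upstream of the first annotated transcript start are given for Ass1 (chr2:31470020-31470206), Odc1 (chr12:17544623-17544793) and Acod1 (chr14:103046762-103046976), on the plus strand, with CG pairs in capitals.
Ass1: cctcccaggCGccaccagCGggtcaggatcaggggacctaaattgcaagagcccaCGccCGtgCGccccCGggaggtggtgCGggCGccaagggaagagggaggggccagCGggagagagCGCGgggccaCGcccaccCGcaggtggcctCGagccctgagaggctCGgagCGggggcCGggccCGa
Odc1: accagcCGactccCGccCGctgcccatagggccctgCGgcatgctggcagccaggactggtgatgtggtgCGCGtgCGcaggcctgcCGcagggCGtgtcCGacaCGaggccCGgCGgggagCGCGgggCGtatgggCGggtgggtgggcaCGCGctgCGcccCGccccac
Acod1: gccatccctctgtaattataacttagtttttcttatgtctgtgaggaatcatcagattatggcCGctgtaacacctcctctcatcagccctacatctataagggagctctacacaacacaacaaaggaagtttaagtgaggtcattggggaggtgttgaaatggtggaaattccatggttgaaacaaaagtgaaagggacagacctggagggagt
GC made up 75.4% of the Ass1 stretch, 77.2% of the Odc1 stretch and 43.3% of the Acod1 stretch. In the 250 bases before the RefSeq start, Ass1 held 23 CG pairs and Odc1 35, more than 86.7% and 97.0% of 32851 mouse promoters, whereas Acod1 held 2, more than 18.8% of them (median 6). The only matches, on both strands, among 8 motifs searched lay between the stretch shown and the RefSeq start, so at or past the first annotated transcript start. Ass1 held the E-box CACGTG (found in 6.02% of all promoters) and the overlapping ACGTG of hypoxia-inducible factors (16.6%), Odc1 held the CREB core TGACG (17.8%) and Acod1 held ACGTG. The interferon-gamma motif TTCNNNGAA and the C/EBP motif TTGCNNAA, along with the kappa-B, STAT6 and interferon-response motifs, had no match in these windows (7.02%, 9.56%, 8.87%, 5.85% and 2.98% of all promoters held them). A match of letters is not a binding site, and the capitals were chosen after the sequences were seen.

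In monocytes and macrophages, 5 of the 6 members that reached 10 CPM in either library were at least 2-fold higher at 3 days of WGP than in PBS, and 6 of 7 at 7 days, with none at least 2-fold lower at either time. Of the members with a UMI in PBS, Acod1 had the largest ratio at both times, although at 3 days Arg1 was above it without 1 PBS cell (8.40 against 6.99), and Odc1 was below 2-fold at both times. Of all genes at that level, 5.73% of 8148 were at least 2-fold higher at 3 days and 7.29% lower, and 6.0% of 8089 were higher at 7 days and 11.3% lower. The median log2 ratio was 3.36 over the members at 3 days and 4.42 at 7 days, against -0.064 and -0.166 over all genes. Because the members were chosen with earlier results known, this comparison with all genes is a description. Between the times, the 7-day library was at least 2-fold above the 3-day library for 2 of 7 members, Nos2 and Ass1, and at least 2-fold below it for none, against 1.93% and 4.14% of 7617 genes.

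Arg1, the cytosolic arginase and a common marker of alternatively activated macrophages, stood at 22.8 CPM (19.6 to 26.3) in PBS monocytes and macrophages, 943 CPM (925 to 961) at 3 days and 487 CPM (477 to 498) at 7 days. The log2 ratio to PBS was 5.37 (5.16 to 5.59) at 3 days and 4.42 (4.21 to 4.64) at 7 days, and the 7-day library was below the 3-day library by a log2 ratio of -0.95 (-0.99 to -0.91). The PBS level rested on 5 cells that held 165, 11, 6, 5 and 1 Arg1 UMIs. Without the cell of 165 UMIs the ratios to PBS were 8.40 and 7.44. In cells of at most 11915 UMIs, which also leaves out that cell of 34930, they were 7.93 and 7.03. A UMI of Arg1 was found in 0.658%, 43.1% and 21.4% of the cells of the class, against 0.216%, 0.631% and 0.423% of B cells. B cells were taken to show background, which was not tested. At 3 days they had 1.40 CPM of Arg1, below T cells at 9.69 CPM and above fibroblasts at 0 CPM. The monocytes and macrophages were the deeper class, with a median of 10254, 14084 and 10903 UMIs against 3690, 4168 and 4895 in B cells. At 1000 UMIs drawn from each cell the shares were 0.264%, 26.9% and 11.6%, against 0.0542%, 0.128% and 0.212% of B cells. The 10% of cells with the most Arg1 held 64.8% of its UMIs at 3 days and 91.0% at 7 days, and a single cell held up to 287. Arg1 was thus concentrated in a smaller share of the class at 7 days, when it held 1367 cells, than at 3 days, when it held 719.

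Arg2, the mitochondrial arginase, was at 0.485 CPM (4 UMIs) in PBS monocytes and macrophages, 11.6 CPM at 3 days and 20.4 CPM at 7 days, with log2 ratios to PBS of 4.58 (3.19 to 6.48) and 5.40 (4.03 to 7.28). It was higher at 7 than at 3 days, by 0.82 (0.52 to 1.12), where Arg1 was lower. Slc7a2, which encodes the cationic transporter CAT2, stood at 10.9, 48.3 and 41.8 CPM, with log2 ratios to PBS of 2.15 (1.82 to 2.49) and 1.94 (1.62 to 2.27). In PBS, 77.8% of its UMIs in the class came from 33 cells of an unnamed sub-cluster led by Cxcl13, Vsig4 and Timd4, in which it reached 168 CPM.

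Nos2 had 0 UMIs among the 760 PBS monocytes and macrophages (upper limit 0.447 CPM), 51 UMIs or 4.61 CPM (3.43 to 6.06) at 3 days and 1186 UMIs or 72.7 CPM (68.6 to 76.9) at 7 days. Against a floor of 3 UMIs in the PBS class, the 3-day library was higher by a log2 ratio of at least 3.67 and the 7-day library by at least 7.64, and the 7-day library was above the 3-day library by 3.98 (3.57 to 4.41). Cells with a Nos2 UMI made up 0%, 1.67% and 14.0% of the class and 0%, 0% and 1.06% of B cells. At 1000 UMIs per cell the class had 0%, 0% and 3.66%. Nos2 was thus the member with the largest difference between the WGP libraries, and the 3-day level came from 12 cells.

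Ass1, which rebuilds argininosuccinate from citrulline and aspartate, stood at 11.4, 40.8 and 111 CPM, with ratios to PBS of 1.84 (1.52 to 2.18) and 3.29 (2.99 to 3.6), and a ratio of 1.45 (1.30 to 1.60) between the times. A UMI was found in 6.71%, 31.0% and 49.6% of the cells. B cells had Ass1 UMIs in 21.3%, 24.8% and 23.7% of cells, so for Ass1 they are not a background class. Odc1 stood at 25.7, 44.9 and 42 CPM, with ratios of 0.81 (0.57 to 1.05) and 0.71 (0.49 to 0.94), and the WGP libraries differed by -0.10 (-0.26 to 0.07).

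Acod1 stood at 2.18 CPM (18 UMIs) in PBS, 232 CPM (2564 UMIs) at 3 days and 336 CPM (5478 UMIs) at 7 days. The log2 ratio to PBS was 6.73 (6.07 to 7.49) at 3 days and 7.27 (6.60 to 8.02) at 7 days, and 0.53 (0.47 to 0.60) between the times. Its UMIs were found in 0.921%, 45.6% and 58.2% of the cells, against 0.0539%, 0.252% and 0.423% of B cells. At 1000 UMIs per cell the shares were 0.132%, 13.4% and 22.7%. Unlike Arg1, Acod1 was detected in more of the class at 7 days than at 3 days.

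**Figure D1:**
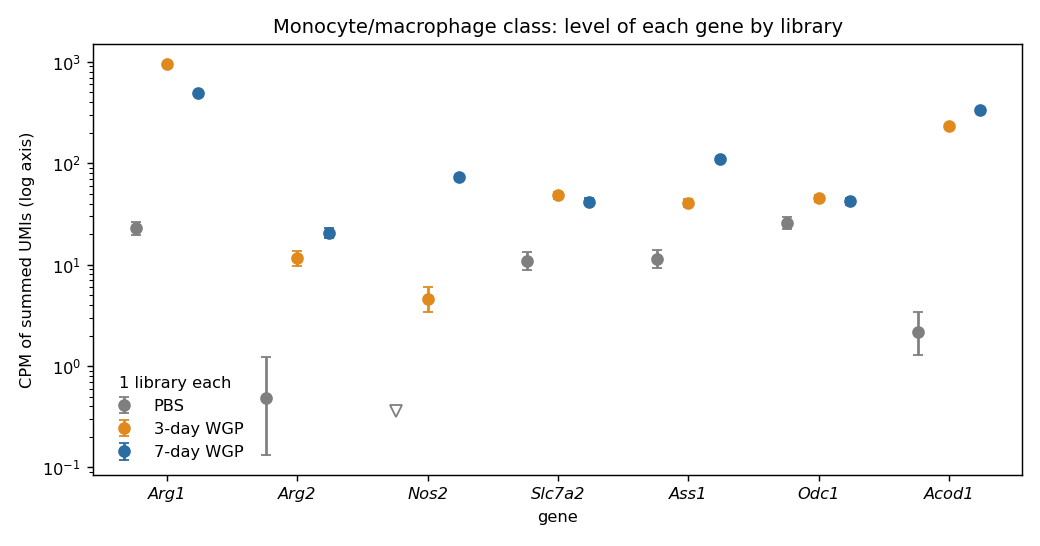
CPM of each member in the monocyte/macrophage class of the PBS, 3-day WGP and 7-day WGP libraries on a log axis, with bars for exact Poisson 95% intervals and 1 library per point, and an open triangle at the level of 3 UMIs where none was found. Arg1 goes from 22.8 to 943 and 487 CPM, Nos2 from 0 to 4.61 and 72.7 CPM and Acod1 from 2.18 to 232 and 336 CPM.

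The members were divided among cell classes in different ways. Arg1 in the PBS library belonged to type 2 innate lymphoid cells (ILC2), which held 72.7% of its UMIs against 20.9% for monocytes and macrophages. After WGP the monocytes and macrophages held 93.2% and 95.9%. The level within ILC2 was close in the libraries with enough cells, at 557 CPM (515 to 601) in 263 PBS cells and 566 CPM (518 to 617) in 282 cells at 3 days, a log2 ratio of 0.02 (-0.15 to 0.19). Only 10 ILC2 remained at 7 days, at 721 CPM. In order of Arg1, ILC2 stood first in PBS, monocytes and macrophages stood above ILC2 at 3 days, and in each case the intervals were apart. Gamma-delta T cells were far lower, at 17.0, 43.2 and 74.6 CPM, and their interval overlapped that of the class next below them in PBS and at 3 days and that of acinar cells, next above at 81.7 CPM, at 7 days.

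Among classes with at least 30 cells, neutrophils were highest in Acod1 and Arg2 in every library. Acod1 in neutrophils was 187 CPM (153 to 225) in PBS, 1292 CPM at 3 days and 2814 CPM at 7 days, with ratios to PBS of 2.79 (2.51 to 3.09) and 3.91 (3.63 to 4.21), and 1.12 (1.02 to 1.23) between the times. At 1000 UMIs per cell, 26.7%, 50.2% and 70.3% of neutrophils had an Acod1 UMI. Neutrophils numbered 88, 226 and 194 cells, and their part of all Acod1 UMIs was 83.1%, 32.6% and 21.3%, while that of monocytes and macrophages was 13.8%, 65.1% and 74.4%. Arg2 in neutrophils stood at 81.2, 204 and 219 CPM, and its log2 ratio to PBS was 1.33 (0.87 to 1.82), then 1.43 (0.93 to 1.95).

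The neutrophils were a mix of clusters whose weight differed between the libraries. Their mix of sex-linked transcripts differed too, as given below. Cluster 26, led by the granule genes Ngp, Camp, Lcn2 and Ltf, held 35 of 88 PBS cells but 12 and 6 cells after WGP, and 75.8%, 19.1% and 20.3% of the UMIs of the class. Cluster 14, led by Hdc, G0s2, Cxcl2 and Cxcr2, held 53, 214 and 188 cells. Within cluster 14 Acod1 was 765, 1591 and 3432 CPM, with ratios to PBS of 1.06 (0.77 to 1.36) and 2.17 (1.88 to 2.46), lower than in the whole class. Arg2 within cluster 14 was 272, 241 and 265 CPM, with ratios of -0.17 (-0.68 to 0.37) and -0.03 (-0.57 to 0.53). The difference of Arg2 from PBS in all neutrophils was thus not found within the cluster that held most of it. In cluster 26 Acod1 had 1, 4 and 44 UMIs and Arg2 9, 9 and 4.

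Most Nos2 and Slc7a2 lay in monocytes and macrophages, which held 100% and 96.7% of the Nos2 UMIs at 3 and 7 days and 92.8%, 89.9% and 94.6% of the Slc7a2 UMIs. Fibroblasts, at 31, 37 and 21 cells, had 8.57, 69.5 and 26.3 CPM of Slc7a2. The 10 endothelial cells at 7 days had 7 UMIs of it, all in 1 cell, or 87.9 CPM (35.3 to 181). These 10 cells also held 68 UMIs of Arg1 and 3 of Nos2, and whether doublets were among them was not tested.

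Ass1 and Odc1 were spread more widely. Conventional dendritic cells stood first in Ass1 in each library, at 87.4, 120 and 188 CPM, with ratios to PBS of 0.45 (0.24 to 0.67) and 1.10 (0.92 to 1.29). In PBS and at 3 days they did not separate from B cells, at 86.4 and 111 CPM. T cells held 85.7, 80.1 and 83.6 CPM of Ass1 and plasmacytoid dendritic cells 76.9, 74.8 and 83.8 CPM. At 7 days the monocytes and macrophages held 51.8% of all Ass1 UMIs. Odc1 in ILC2 was 229 CPM in PBS and 583 CPM at 3 days, a ratio of 1.35 (1.13 to 1.57), and in ILC2 with a Y transcript and no Xist the ratio was 0.74 (0.42 to 1.07). T cells were level at 121 and 126 CPM in PBS and at 3 days, a ratio of 0.06 (-0.18 to 0.30), and stood at 428 CPM at 7 days, a ratio of 1.82 (1.63 to 2.01). Gamma-delta T cells stood at 200, 243 and 583 CPM, with a 7-day ratio of 1.54 (1.20 to 1.90). In plasma cells Odc1 was 194, 167 and 125 CPM, with ratios of -0.22 and -0.63. Against 0.81 and 0.71 in monocytes and macrophages, the ratio was larger in T cells and gamma-delta T cells at 7 days. The 3-day ratio of gamma-delta T cells was 0.28 (-0.03 to 0.61). In ILC2 at 3 days the ratio was larger over all cells, at 1.35, but not in those with a Y transcript and no Xist, at 0.74. The differences between classes were not tested.

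**Figure D2:**
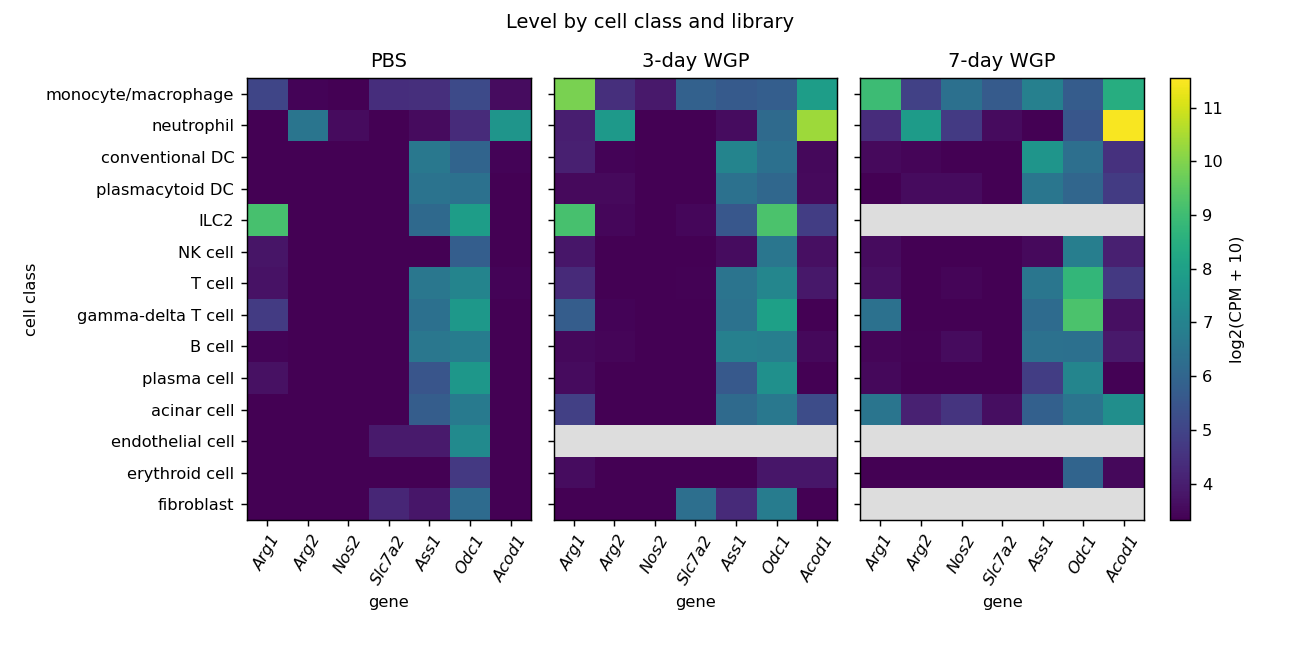
Level of each member, as log2(CPM + 10), in every named cell class, with 1 panel per library and 1 column per gene, and grey where a library held under 30 cells of the class. Arg1 is high in ILC2 and in WGP monocytes and macrophages, Acod1 and Arg2 in neutrophils, Nos2 in monocytes and macrophages at 7 days, and Ass1 and Odc1 in several lymphoid classes.

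Free RNA, which can enter any droplet and was read from barcodes of at most 100 UMIs, carried some of the members. Arg1 made up 12.9, 163 and 191 CPM of it, Acod1 2.48, 65.5 and 117 CPM, Nos2 0, 0.507 and 33.6 CPM, Ass1 26.3, 32.7 and 56.2 CPM and Odc1 93.7, 116 and 138 CPM. B cells stayed at 0.525, 1.40 and 0.692 CPM of Arg1 and at 0.0875, 1.40 and 4.84 CPM of Acod1. Acinar cells, the enzyme-secreting cells of the pancreas, had 81.7 CPM of Arg1 and 159 CPM of Acod1 at 7 days. The part of free RNA in the low levels of classes other than those named above was not tested.

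Monocytes and macrophages were divided into states by clustering them alone with the members left out, and a state was named after its fixed markers. Resident macrophage-like cells, led by Fcrls, Mgl2, Mrc1 and Cd163, numbered 565, 90 and 30 (74.3%, 12.5% and 2.19% of the class). Lipid-associated and repair macrophage-like cells, led by Saa3, Cd5l, Fabp4, Gpnmb, Slpi, Prg4, Marco, Spp1, Fabp5 and F7, numbered 9, 381 and 223 (1.18%, 53.0% and 16.3%). Inflammatory macrophage-like cells, led by Ly6i, Cxcl9, Ccl5, Ptgs2 and Il1b, numbered 19, 51 and 676 (2.5%, 7.09% and 49.5%), and Ly6C-high monocyte-like cells, led by Chil3, Vcan and Ly6c2, numbered 94, 134 and 313 (12.4%, 18.6% and 22.9%). Another 3 sub-clusters stayed unnamed. One of them, led by Gbp2b and Ltb4r1, held 0, 39 and 125 cells. The lipid-associated name is not settled, since Prg4 is a marker of large peritoneal macrophages and Cd5l, Slpi and Marco are in neither list. At a finer clustering, 258 cells at 3 days and 106 at 7 days were named large peritoneal-like, and 123 and 114 lipid-associated. Arg1 was 1703 and 1863 CPM in these large peritoneal-like cells and 996 and 2106 CPM in these lipid-associated cells, Acod1 436 and 379 CPM against 105 and 199 CPM, and Nos2 9.15 and 63.7 CPM against 1.97 and 99.4 CPM. Below, the lipid-associated state is the one of the coarser clustering.

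Arg1 lay in the lipid-associated state, which held 96.8%, 98.1% and 88.0% of the UMIs of the class, in PBS from only 3 cells. The 9 PBS cells of the state held 182 Arg1 UMIs among 168147 UMIs, and 1 cell held 165 of the 182. The level of Arg1 in that state was 1493 CPM at 3 days and 1999 CPM at 7 days, a log2 ratio of 0.42 (0.38 to 0.46). A UMI was found in 74.0% and 82.1% of its cells. The class as a whole was lower in Arg1 at 7 days, while the state that carried it was higher and made up a smaller share of the class. In the inflammatory state Arg1 was 58.0 and 90.9 CPM, in the unnamed sub-cluster led by Gbp2b 133 and 136 CPM, and in Ly6C-high monocyte-like cells 33 and 12.5 CPM. Resident macrophage-like cells had 0.958, 30.7 and 3.37 CPM. Slc7a2 was high in the same state as Arg1, with 71.1 CPM at 3 days and 113 CPM at 7 days, and 91.2% and 57.8% of the UMIs of the class.

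The state with most of the Nos2 UMIs differed between the 2 times, as did the sizes of the states. At 3 days 94.1% of its UMIs lay in the lipid-associated state of 381 cells, at 7.01 CPM. The inflammatory state of 51 cells then had 3 UMIs or 4.47 CPM, too few to rank these states by level. At 7 days 75.1% lay in the inflammatory state, at 113 CPM, and 24.2% in the lipid-associated state, at 82.0 CPM. Whether Nos2 moved between states was not tested. At 7 days a Nos2 UMI was found in 17.9% of inflammatory and 29.1% of lipid-associated cells, at a median depth of 11317 and 15101 UMIs. At 1000 UMIs per cell the shares were 5.18% (3.63 to 7.13) and 5.83% (3.14 to 9.76). Ly6C-high monocyte-like cells had 0, 0 and 1.57 CPM of Nos2 and resident macrophage-like cells had no UMI.

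Acod1 was shared between states. In the lipid-associated state it was 337 CPM at 3 days and 289 CPM at 7 days, a log2 ratio of -0.22 (-0.33 to -0.12), and in the inflammatory state 165 and 459 CPM. The lipid-associated state held 90.1% of the Acod1 UMIs of the class at 3 days and the inflammatory state 66.2% at 7 days. Ly6C-high monocyte-like cells had a UMI in 1.06%, 15.7% and 26.5% of cells. Ass1 was highest in the inflammatory state, at 92.3 and 171 CPM, and was also present in Ly6C-high monocyte-like cells at 51.9 CPM in PBS, 63.9 CPM at 3 days and 82.1 CPM at 7 days. Resident macrophage-like cells stood at 4.47, 3.54 and 3.37 CPM of Ass1. Odc1 at 3 days was 59.5 CPM (42.5 to 81.1) in the inflammatory state and 51.4 CPM (46.2 to 57.1) in the lipid-associated state, above 25 CPM (18.4 to 33.3) in Ly6C-high monocyte-like cells and 18.9 CPM (10.8 to 30.7) in resident macrophage-like cells. At 7 days it was 52.4, 35.4, 29.8 and 37.1 CPM.

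**Figure D3:**
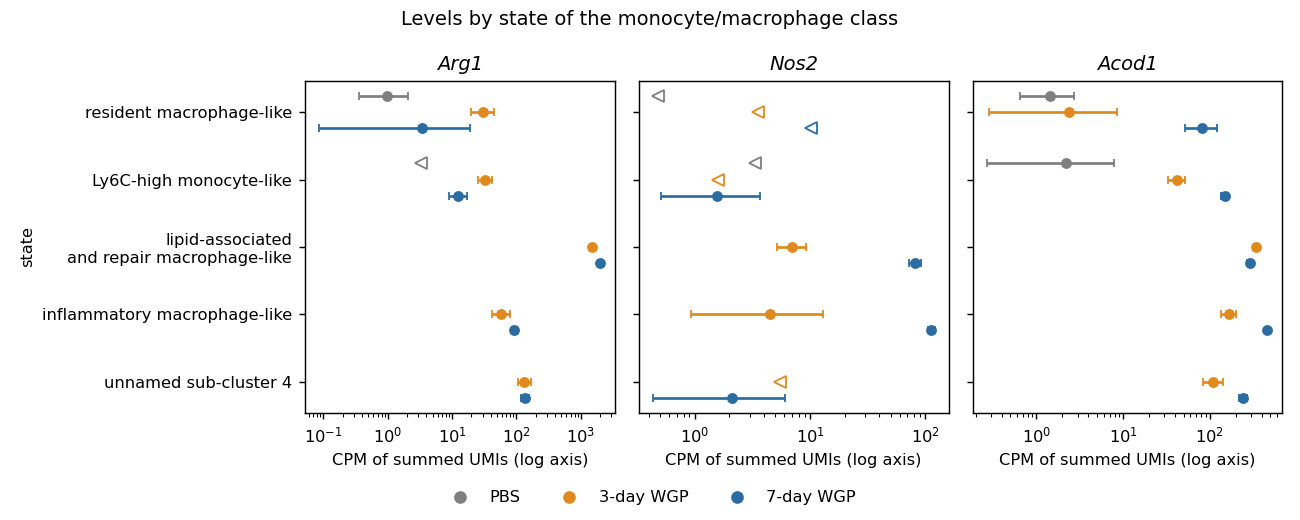
CPM of Arg1, Nos2 and Acod1 on log axes in the macrophage and monocyte states with at least 30 cells, by library, with exact Poisson 95% intervals and open triangles at the level of 3 UMIs where none was found. Arg1 stands at 1493 and 1999 CPM in the lipid-associated state and at 58.0 and 90.9 CPM in the inflammatory state at 3 and 7 days, while Nos2 at 7 days stands at 82.0 and 113 CPM.

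Arg1, Nos2 and Acod1 were also found together in single barcodes, each counted here as 1 cell. Among 718 monocytes and macrophages with at least 1000 UMIs at 3 days, 310 had Arg1, 328 Acod1 and 12 Nos2. Acod1 was found in 74.5% (69.3 to 79.3) of the cells with Arg1 and in 23.8% (19.7 to 28.2) of those without. All 12 cells with Nos2 had Acod1, 9 of them also had Arg1, and these 9 (1.25%) were the cells with all 3 genes. None of the 3 was found in 311 cells (43.3%). In PBS, 5 cells had Arg1, 7 had Acod1 and none had Nos2, and 1 cell, the one with 165 Arg1 UMIs, had both Arg1 and Acod1.

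At 7 days, 293 of 1367 cells had Arg1, 796 Acod1 and 191 Nos2. Nos2 was found in 31.1% (25.8 to 36.7) of the cells with Arg1 and in 9.31% (7.64 to 11.2) of those without. Arg1 and Nos2 were together in 91 cells (6.66%), and all 3 genes in 81 (5.93%). Acod1 was found in 88.5% (83.1 to 92.6) of the cells with Nos2 against 53.3% of those without, and in 69.6% (64.0 to 74.8) of the cells with Arg1 against 55.1% (52.1 to 58.1) of those without. Arg1 and Nos2 were thus detected in the same barcodes at 7 days, although 202 cells had Arg1 alone of this pair and 100 had Nos2 alone. Doublets were not tested as a part of this, nor was free RNA, which at 7 days held 191 CPM of Arg1 and 33.6 CPM of Nos2.

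Depth moved with co-detection. Cells with both Arg1 and Nos2 at 7 days had a median of 15702 UMIs against 10471 for cells with neither, and cells with both Arg1 and Acod1 at 3 days had 18645 against 11937. At 1000 UMIs drawn from each cell, Acod1 was found in 21.8% of the cells with Arg1 against 10.3% of those without at 3 days. At 7 days the shares were 23.3% and 22.6% for Acod1, and 9.43% (5.38 to 15.1) against 2.90% (2.03 to 4.01) for Nos2. At equal depth the intervals for Nos2 at 7 days were thus apart, and those for Acod1 at 7 days overlapped.

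Nos2 and Arg1 were also compared within states at 7 days. In the inflammatory state Nos2 was found in 44.9% of the cells with Arg1 and 14.8% of those without, and all 3 genes were in 29 of 676 cells (4.29%). In the lipid-associated state the Nos2 shares were 31.7% and 17.5%, and all 3 genes were in 50 of 223 cells (22.4%). At 3 days, Acod1 in the lipid-associated state was found in 78.7% of the cells with Arg1 and 45.9% of those without, whereas for Nos2 the shares were 2.84% and 3.06%. At 1000 UMIs per cell, the inflammatory state at 7 days had Nos2 in 23.1% (8.97 to 43.6) of the cells with Arg1 and 4.46% (3.01 to 6.34) of those without, while in the lipid-associated state the shares were 6.84% and 4.72%, with intervals that overlapped. Acod1 in the lipid-associated state at 3 days was then found in 22.2% of the cells with Arg1 and 22.1% of those without. Cells of 1 library share their source, and undetected doublets, which can hold transcripts of a pair of cells, were not tested as a part of these counts.

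**Figure D4:**
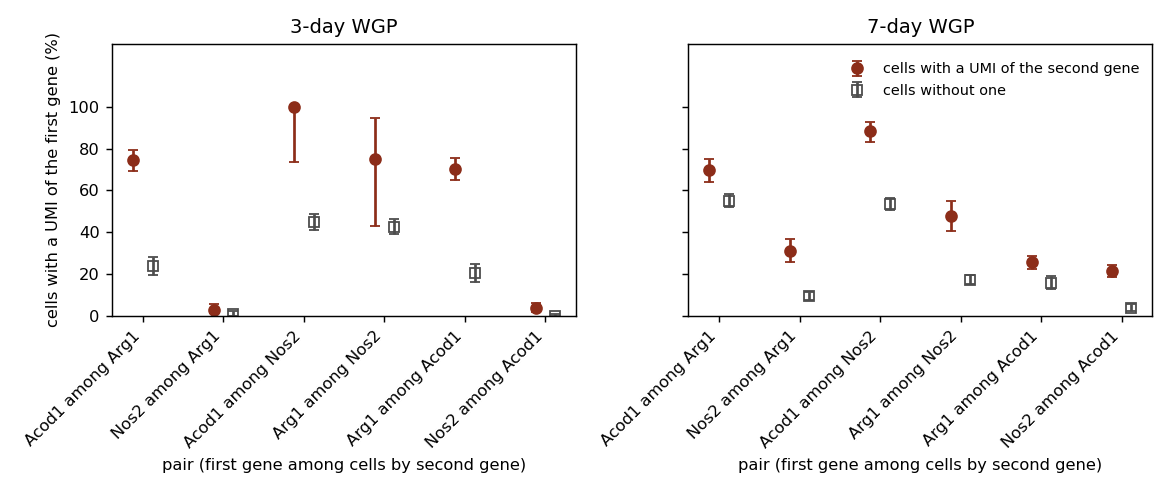
Share of monocytes and macrophages with at least 1000 UMIs that had a UMI of the first gene of each pair, among cells with (filled) and without (open) the second, with exact Clopper-Pearson 95% intervals. At 7 days Nos2 stands at 31.1% of cells with Arg1 and 9.31% of those without, and Acod1 at 88.5% of cells with Nos2 and 53.3% of those without.

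The libraries differed in the sex-linked transcripts of their macrophages. Of the monocytes and macrophages with either Xist, which is expressed from the inactive X chromosome, or a transcript of the Y chromosome, but not both, 99.0% (716 cells), 13.1% (71 cells) and 48.6% (537 cells) were Xist cells. The B cells of the same libraries had 26.8%, 26.2% and 26.9%, and ILC2 48.5%, 3.17% and, at 7 days, 3 of 6 cells. Neutrophils had 73.3%, 10.1% and 27.7%, and conventional dendritic cells 80.3%, 9.14% and 28.2%. The mix thus differed between classes as well as between libraries. A PBS reference for Y cells could not be had, because the PBS class held 7 of them. Sex and treatment therefore cannot be told apart in the monocyte and macrophage class as a whole, and its comparison with PBS was repeated in Xist cells alone. The ratios to PBS given above over all neutrophils, conventional dendritic cells or ILC2 carry the same limit.

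Within Xist cells the ratios of Arg1 and Acod1 to PBS stayed above 2-fold at both times, and at 3 days they were smaller than in the whole class. Arg1 stood at 22.7, 167 and 662 CPM, with log2 ratios to PBS of 2.88 and 4.87. Acod1 had ratios of 3.8 and 6.90, Slc7a2 2.71 and 2.15, and Ass1 0.78 (-0.02 to 1.51) and 3.12. Arg2 had 4 UMIs in PBS, 0 in the 71 Xist cells of the 3-day library and 87 (13.5 CPM) at 7 days. At 3 days 3 of the 5 members that reached 10 CPM were thus at least 2-fold higher in Xist cells, against 5 of 6 in the whole class. At 7 days 6 of 7 were. The share of all genes past 2-fold was not computed for Xist cells, so these counts have no background beside them. Nos2 was at 0, 0 and 75.5 CPM, at least 7.66 above the floor at 7 days. Odc1 had ratios of 0.24 (-0.36 to 0.78) and 0.59.

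The order of the WGP libraries in Arg1 differed between the sexes. From 3 to 7 days the log2 ratio was 1.99 (1.77 to 2.22) in Xist cells and -1.43 (-1.49 to -1.37) in Y cells, which stood at 1067 and 396 CPM. The lipid-associated state made up 19.7% and 15.8% of the Xist cells and 60.04% and 18.3% of the Y cells. Within that state Arg1 was 570 CPM (14 cells) and 2437 CPM in Xist cells, and 1509 and 1589 CPM in Y cells. The 8 PBS Xist cells of that state stood at 1065 CPM of Arg1, from 176 UMIs of which 1 cell held 165. For Nos2, Acod1 and Ass1 the Y-cell ratios of 7 to 3 days were 3.53, 0.50 and 1.48, in the same direction as in the whole class. The 7-day level was thus the lower one in Y cells and the higher one in Xist cells, a difference that was not tested.

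**Figure D5:**
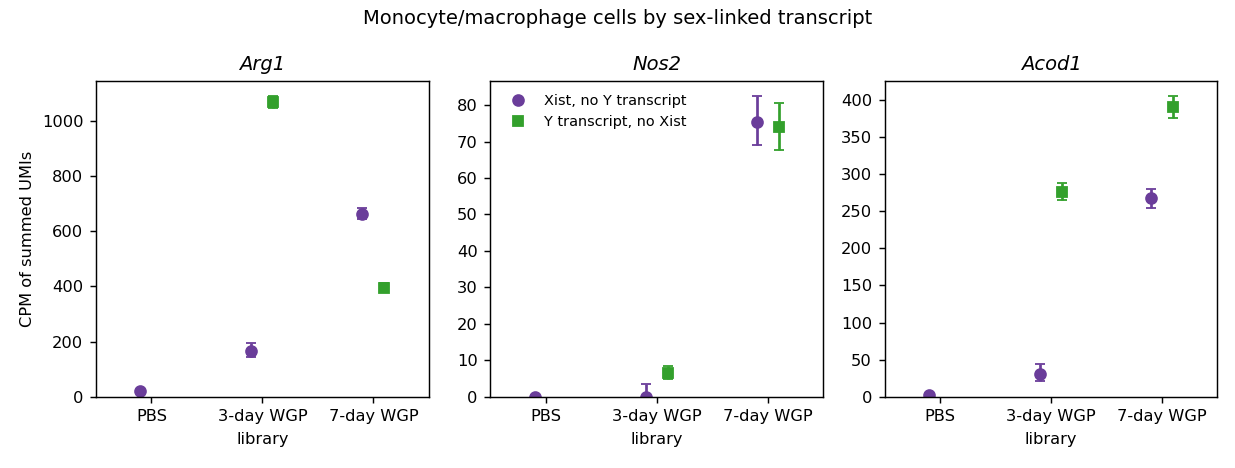
CPM of Arg1, Nos2 and Acod1 in monocytes and macrophages with Xist and no Y transcript, and with a Y transcript and no Xist, by library, with exact Poisson 95% intervals. The 7 Y cells of the PBS library are not drawn. From 3 to 7 days Arg1 goes from 167 to 662 CPM in Xist cells and from 1067 to 396 CPM in Y cells.

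The genes with the pattern most like each of 3 members were sought among 7285 genes that reached 50 CPM, by Pearson's r of log2(CPM + 10) over 38 points of 14 classes in 3 libraries, which share their libraries and depth. For Arg1 they were Rnf128 (0.83), Bmp2 (0.82), 1810011H11Rik (0.73), Lif (0.73) and Slc7a8 (0.71). For Nos2 they were Batf2 (0.85), Gbp2b (0.81), Ly6i (0.75), Fam26f (0.70) and Gdap10 (0.69). For Acod1 they were the C-type lectin receptors Clec4e (0.96) and Clec4d (0.96), then Gpr84 (0.95), Il1rn (0.95) and Slc7a11 (0.95). Among the members, Arg2 and Acod1 had r of 0.91, Nos2 and Acod1 0.64, Arg1 and Nos2 0.46 and Arg1 and Acod1 0.34. These lists depended on the scale and the points: of the 5 genes, 4 for Arg1, 1 for Nos2 and 3 for Acod1 were also among the first 5 with a pseudocount of 1 CPM, and 2, 3 and 2 in the WGP libraries alone. Spearman's rho was 0.75 for Arg1 with Rnf128, 0.50 for Nos2 with Batf2 and 0.73 for Acod1 with Clec4e.

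Other genes of the same pathways were counted in monocytes and macrophages. Of 55 genes listed, 54 were in the table and 42 reached 10 CPM. At 3 days 2 were at least 2-fold higher and 3 at least 2-fold lower (median log2 ratio -0.11), and at 7 days 2 were higher and 5 lower (median -0.20). With the shares over all genes given above, these counts are near the background. The higher ones were Atf3, a stress-induced transcription factor, at 151, 344 and 502 CPM, Hmox1, the haem-degrading oxygenase, at 160, 483 and 315 CPM, and Gch1, which begins the synthesis of the Nos2 cofactor tetrahydrobiopterin, at 27.6, 53.3 and 63.3 CPM. Gch1 had log2 ratios of 0.95 and 1.20 and so passed 2-fold at 7 days alone, as Hmox1, with 1.59 and 0.97, did at 3 days alone.

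Over all libraries the 5 lower genes were higher in resident macrophage-like cells than in the other named states, with Ddah2 at 26.3 CPM against at most 2.66 CPM and Gatm at 242 CPM against at most 59.7 CPM, and that state made up 74.3%, 12.5% and 2.19% of the class. Its part in these values was not tested. Ddah2 stood at 22.2, 3.16 and 1.35 CPM, with log2 ratios of -2.81 and -4.04. Gatm, which uses arginine for creatine synthesis, stood at 204, 45.3 and 59.0 CPM (-2.17 and -1.79). Idh2, a mitochondrial isocitrate dehydrogenase, stood at 113, 45.9 and 32.9 CPM (-1.30 and -1.78). The polyamine oxidase gene Paox, at 37.0, 25.7 and 12.8 CPM, and the mitochondrial dicarboxylate carrier Slc25a10, at 21.9, 12.6 and 8.46 CPM, were at least 2-fold lower at 7 days alone. All 14 genes of the tricarboxylic acid cycle around itaconate reached 10 CPM and none was at least 2-fold higher at either time. Of all genes 5.73% and 6.0% were, so none among 14 is near that background.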

How the data were processed

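The authors deposited, per the labels, 10x Genomics gene-by-barcode matrices of raw UMI counts, made with Cell Ranger 3.1.0 on mm10 from 3′ v3.1 libraries, and the submitters' processing notes name Seurat without a version. These unfiltered counts were used with no normalization by the authors; the libraries summed to 52464690 (PBS), 56849043 (3-day WGP) and 48219246 (7-day WGP) UMIs. Cells were called by a port of emptyDrops (false discovery rate 0.01, barcodes of at most 100 UMIs as ambient), giving 6570, 5761 and 5264. Those over 30% mitochondrial or 40% ribosomal UMIs were removed. The automatic threshold of Scrublet (scanpy 1.11.5) marked 0, 1 and 3 cells and so had not worked; the cells with the highest scores were removed instead, at 0.8% per 1000 cells, or 4.36%, 4.24% and 3.71% of cells.

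Counts were transformed with sctransform 0.4.2 and clustered in Seurat 5.3.0 (R 4.3.3; 3000 variable genes without the members, 30 components, resolution 0.8, and 0.4 within monocytes and macrophages). Clusters were named where at least 3 fixed markers of a list were raised and their mean log2 ratio was at least 1. That mean also had to lead the next list by at least 0.5. Shallow clusters with none of the list's markers among their leading genes stayed unnamed, as did clusters led by more markers of another list. The members and lists, and the thresholds for naming, were chosen with earlier results of these data known. CPM is 1000000 times the summed UMIs of a gene over the UMIs of its class, ratios need 10 CPM in either library to be counted as 2-fold, and a count of 0 was set to 3 UMIs for a lower bound. Shares were repeated after thinning each cell to 1000 UMIs, leaving out shallower cells. All 7 members are named, with the 5 genes most like Arg1, Nos2 and Acod1 and the pathway genes past 2-fold. Scripts were tested on simulated data. Sequences came from RefSeq and positions from GENCODE vM21. Alternatives covered calling, doublets, TMM factors of edgeR 4.0.16, thinning, states and sex-linked transcripts. No statistical test was run, since each group is 1 library.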

Additional observations from a re-analysis of the deposited data

Results flagged for a closer look

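The change of Arg1 from 3 to 7 days of WGP went in opposite directions by sex-linked transcripts. The log2 ratio of 7 to 3 days was 1.99 in monocytes and macrophages with Xist and no Y transcript and -1.43 in those with a Y transcript and no Xist. The difference was not tested, because each time is 1 library and the labels do not say how many mice of either sex it held. The 3-day Xist cells numbered 71, against 473 Y cells.

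Free RNA, read from barcodes of at most 100 UMIs, was not part of the comparisons between cells. It carried more of several members after WGP than in PBS, of which the 3 genes of the co-detection are given here. Arg1 made up 163 CPM of this free RNA at 3 days and 191 CPM at 7 days, against 12.9 CPM in PBS. Nos2 made up 33.6 CPM at 7 days, against 0 in PBS. Acod1 made up 65.5 CPM at 3 days and 117 CPM at 7 days, against 2.48 CPM in PBS.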

How the results depend on the processing

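Every log2 ratio of Arg1 and Acod1 to PBS that could be computed kept its direction, although within resident macrophage-like cells the intervals of Acod1 at 3 days and Arg1 at 7 days reached below 0. Nos2 had no ratio at 3 days in Xist cells or within the Ly6C-high and resident states, where it was at or near 0. Over all members 88 of 134 alternatives for ratios to PBS moved by less than the counting interval, 41 moved further and 5 turned. The number of members past 2-fold stayed within 1.5 times in 9 of 10 alternatives. It was 3 rather than 5 at 3 days in Xist cells (chosen after seeing the data), where no share of all genes was computed. Of the other values, 154 of 214 CPM values, 42 of 84 shares and 18 of 30 co-detection shares stayed within their interval, as 1 of 6 lists of the 5 genes most like a member did within 1.5 times.

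Arg1 at 3 and 7 days over PBS had log2 ratios of 7.93 and 7.03 in cells at or below the knee of all libraries (11915 UMIs), 6.26 and 5.27 as a mean over cells, 2.88 and 4.87 in Xist cells, 5.0 and 1.82 within resident macrophage-like cells, at least 3.32 and at least 1.92 within Ly6C-high monocyte-like cells, and 8.40 and 7.44 without the PBS cell that held most of it (an alternative chosen after seeing the data). TMM factors gave 4.68 at 7 days. Acod1 had 8.16 and 9.37 at or below the knee, 7.50 and 8.07 with no doublets removed, 4.25 and 6.08 within Ly6C-high monocyte-like cells, 0.72 and 5.82 within resident macrophage-like cells, and 3.8 at 3 days in Xist cells. Nos2 at 7 days was at least 7.78 with the members kept among the variable genes, at least 5.82 at or below the knee and at least 7.90 with TMM factors. The knee alternative keeps fewer UMIs, so that 3 UMIs stand for a higher CPM in PBS, and it also leaves out the deeper cells. The causes of these shifts were not tested.

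Some directions turned within states or clusters. On few UMIs, Slc7a2 to PBS was -2.05 (-5.52 to 0.75) and -2.82 (-6.28 to -0.01) in Ly6C-high monocyte-like cells, and in resident macrophage-like cells Ass1 was -0.34 and -0.41 and Odc1 at 3 days -0.56. Arg2 in neutrophils was -0.17 and -0.033 to PBS within cluster 14. Between the times, Arg1 was 1.99 in Xist cells, 0.65 in the inflammatory state, 0.42 in the lipid-associated state and 0.036 in the unnamed sub-cluster led by Gbp2b, Slc7a2 was 4.58, 0.66 and 0.20 in those states, Ass1 was -0.070 in resident macrophage-like cells and -0.78 in that sub-cluster, and Acod1 was -0.22 in the lipid-associated state. The within-state ratios between the times and the neutrophil clusters were added after seeing the data.

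Acod1 among cells with Arg1 was 21.8% thinned and 64.2% at 2 UMIs of each gene at 3 days, and 23.3%, 55.3% and, within the inflammatory state, 82.6% at 7 days. Nos2 among cells with Arg1 was 0% thinned at 3 days, and 9.43% thinned, 22.5% at 2 UMIs and 44.9% within the inflammatory state at 7 days. All 3 genes were in 0% of cells thinned at 3 days, and in 0.293% thinned and 3.29% at 2 UMIs at 7 days.

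No paired analysis was possible because the labels give 1 library per group. Depth limits the low members most, since the PBS class held 4 UMIs of Arg2, 18 of Acod1 and 0 of Nos2. The sum of PBS Arg1 rested on 1 cell. Ratios of Y cells to PBS could not be had from 7 cells.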
